A study of Saccharomyces cerevisiae with 24 samples.

Results

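Heat shock was followed in the pbf1 deletion of Saccharomyces cerevisiae, a strain without the gene TOD6 (PBF1, YBL054W), on 6 of the 24 arrays of the series. The 6 arrays were chosen by their titles: 3 hold delta-pbf1 cells after 20 min at 37 °C and 3 hold delta-pbf1 cells at 0 min, before the shift. The arrays set beside them hold the pbf2 deletion, which lacks the related gene DOT6 (PBF2, YER088C), and the wild type, with 3 arrays at 20 min and 3 at 0 min each. All groups share the BY4741 background, growth at 25 °C, a labelling from 5 ug of total RNA and the Affymetrix Yeast Array 2.0. Per the labels, cells were grown in triplicate, and part of the cells was taken at 0 min and the rest after the shift. The labels do not say whether the deletion strain is 1 clone, and the p-values measure the spread between these cultures.

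A shift to a higher temperature is met in yeast by a large change of the transcriptome. Heat shock factor and the stress factors Msn2 and Msn4 turn on chaperones, proteases, protective sugars and antioxidant enzymes, while genes for making ribosomes are turned down. TOD6 and DOT6 encode related Myb-type proteins that bind the PAC element upstream of many ribosome biogenesis genes and recruit the histone deacetylase RPD3L to repress them. They act below TORC1, protein kinase A and the kinase Sch9, which hold them off in growing cells.

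The deleted gene was checked first. TOD6 had signals of 1.23, 2.19 and 0.413 at 20 min, against 2.61, 2.00 and 8.09 at 0 min in the pbf1 deletion, none of them above the array's background. Background is the 95th percentile of the probe sets for genes outside S. cerevisiae, a signal of 10.01 to 10.8 on the 6 arrays. In the wild type TOD6 had signals of 303, 126 and 112 at 20 min and 575, 466 and 351 at 0 min, and the pbf1 deletion lay below this by at least 15.5-fold at 20 min and by at least 43.7-fold at 0 min. DOT6 was measured on all 6 arrays of the pbf1 deletion, with signals of 991, 994 and 988 at 20 min, against 1017, 879.9 and 912 at 0 min. The arrays of both times overlapped for DOT6, and its log2 change of 0.08 ± 0.54 (SE) did not pass (limma, adjusted p = 0.89). That error is shared with the strains in which DOT6 itself is deleted, and with the 6 arrays of the pbf1 deletion alone the adjusted p was 0.33.

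Genes beside the deletion and the markers of the strain were looked at next. Of the 6 tested neighbours of TOD6, 3 rose and 2 fell, with a median log2 change of 0.22 (-0.05 with arrays centred on the hybridization controls and -1.001 with spike-in centring). SEC17, a membrane fusion factor, had a log2 change of 1.08 (-0.14 with spike-in centring), and SAS3, a histone acetyltransferase, one of -0.96. BY4741 is an a strain that carries deletions in HIS3, LEU2, MET17 and URA3. URA3 was at background on all 6 arrays, with signals of 6.90, 2.34 and 1.47 at 20 min, against 3.41, 0.644 and 5.78 at 0 min. MET17 was above background on 1 of 6 arrays and LEU2 on 5 of 6, at signals of 6.16, 23.9 and 16.1 at 20 min, against 18.3, 14.9 and 14.4 at 0 min, while HIS3 gave signals of 1226, 1067 and 1049 at 20 min, against 1409, 1320.4 and 1226 at 0 min. Of the a-cell markers, all 7 were tested, and among the 4 alpha-cell markers MF(ALPHA)1 was at background on all 6 arrays of the pbf1 deletion. STE3, the a-factor receptor of alpha cells, was above background on all 6 arrays, at 77.9, 71.5 and 85.8 at 20 min, against 28.8, 25.5 and 20.4 at 0 min.

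Signals are MAS5 values, scaled by the authors to the same trimmed mean on every array. The median S. cerevisiae probe set had a signal of 464 to 549 on the 6 arrays, and 97.01% to 98.6% of the genes exceeded the background per array. Of the 5395 genes tested, 5238 were above background on all 6 arrays and 14 on none. The brightest gene on each of the 6 arrays was TDH3, with signals of 17923 to 22071. The poly(A) spike-in controls were brighter at 20 min than at 0 min, by log2 1.95, 1.01 and 0.72 in the 3 cultures. Here and below a culture means the 2 arrays with the same replicate number, which the labels do not tie to 1 flask and whose deviations were not shown to go together. Values are therefore relative to the other RNAs on the array. Per the labels, every labelling started from the same amount of total RNA, so the values measure neither cell number nor RNA per cell. The cause of the brighter spike-in controls at 20 min was not tested.

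Most of the transcriptome changed within 20 min at 37 °C without TOD6. Of the 5395 genes, 2763 rose and 1640 fell (limma, Benjamini-Hochberg adjusted p under 0.05), which is 51.2% and 30.4% of the genes tested. A change of at least 2-fold was reached by 1124 genes that rose (20.8%) and by 708 that fell (13.1%). For 4437 genes (82.2%) the 3 arrays at 20 min did not overlap the 3 arrays at 0 min, and 4688 genes moved the same way in all 3 cultures. The median log2 change over all genes was 0.27, and it was 0.21, 0.25 and 0.33 in the 3 cultures.

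The split between rises and falls depended on the scaling of the arrays. There were 2153 rises and 2102 falls after quantile normalization, 2274 and 2032 with arrays centred on their medians, and 1894 and 1990 with arrays centred on the hybridization controls. With arrays centred on the spike-in controls, which moves every log2 change by -1.23, 262 genes rose and 2801 fell. The median of all genes was 0.01, 0.07, -0.01 and -0.96 under these 4 scalings. Changes below are therefore read against the all-gene median of 0.27, and a list whose median changes sign under a scaling has that value beside it. Counts in a list are read against the 51.2% rises and 30.4% falls over all genes. A lack of overlap is read against the 82.2% of all genes that had none.

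**Figure D1:**
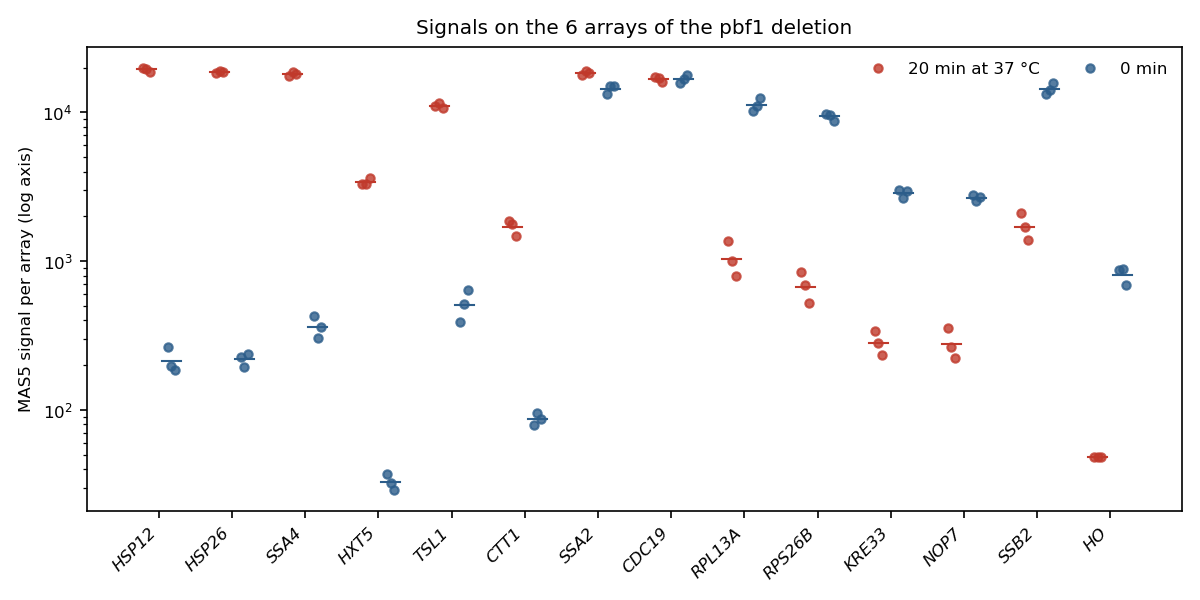
MAS5 signals (vertical log axis) of 14 genes on the 6 arrays of the pbf1 deletion, with red points for the 3 arrays at 20 min and blue points for the 3 at 0 min, and bars at the geometric means. HSP12 and HSP26 lie near the top of the signal range at 20 min, SSA2 and CDC19 lie there at both times, and the arrays of RPL13A, RPS26B, KRE33, NOP7, SSB2 and HO at 20 min lie below those at 0 min.

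Heat shock proteins that disassemble or shield unfolded proteins rose as a group. All 9 tested disaggregases and small heat shock proteins rose, with a median log2 change of 2.77. HSP12, a membrane-associated small heat shock protein, had signals of 19854, 19721 and 18737 at 20 min, against 263, 196 and 185 at 0 min. HSP26, which forms shells around unfolded proteins, had signals of 18460, 19079 and 18625 at 20 min, against 227, 195 and 236 at 0 min. For both genes every array at 20 min lay far above every array at 0 min, with log2 changes of 6.52 ± 0.10 (SE, adjusted p = 2.7e-21) and 6.42 ± 0.14 (SE, adjusted p = 2.6e-19). Both genes lay near the top of the signal range at 20 min, so their changes may be understated, which was not tested. HSP78, the mitochondrial disaggregase, changed by log2 4.24, and HSP31, a methylglyoxalase and chaperone, by 3.19.

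Most genes of the Hsp70 family rose, and its ribosome-bound members fell. Of 14 tested Hsp70 and Hsp110 genes and their exchange factors, 11 rose and 3 fell, with a median of 0.76 (-0.47 with spike-in centring). SSA4, the stress-induced cytosolic Hsp70, had signals of 17677, 18756 and 18223 at 20 min, against 427, 304 and 363 at 0 min, and SSA3 had 8618, 9226 and 8619 at 20 min, against 244, 155 and 139.6 at 0 min. Their close relative SSA2, which is made in unstressed cells, was bright at both times, at 17826, 18984 and 18493 at 20 min, against 13335, 15046 and 14983 at 0 min. The arrays did not overlap for any of these 3 genes, and the log2 changes were 5.65 for SSA4, 5.66 for SSA3 and 0.35 for SSA2 (-0.87 with spike-in centring). SSA2 at both times and SSA4 at 20 min lay near the top of the signal range, so the size of their changes is not read. The 3 members that fell serve new chains at the ribosome: SSB2 at log2 -3.08, SSB1 at -1.61 and SSZ1 at -1.28. SSB2 had signals of 2095, 1684 and 1380.4 at 20 min, against 13298, 14077 and 15802 at 0 min, with no overlap. Its signals at 0 min lay at the level of SSA2 at 0 min, so its fall may be understated, which was not tested.

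Most helpers of Hsp70 and Hsp90 rose as well. Of 13 Hsp40 genes 10 rose and 2 fell (median 0.82, -0.40 with spike-in centring), led by MDJ1 of mitochondria at 2.46, APJ1 at 1.61 and SIS1 at 1.46. The 2 that fell were ZUO1, which sits on the ribosome with Ssz1, at -1.31, and JJJ1, which acts in making the large subunit, at -0.89. Of 13 genes of Hsp90 and its cochaperones, 10 rose and 3 fell (median 0.70, -0.53 with spike-in centring). AHA1, which speeds the Hsp90 ATPase, had signals of 10067, 9775 and 9587 at 20 min, against 1832, 1515 and 1488 at 0 min and HSP82, the inducible Hsp90, had 14520, 14009 and 13520 at 20 min, against 2810.1, 2955 and 3290.1 at 0 min. Neither gene's arrays overlapped, and the log2 changes were 2.61 and 2.22. HSP82 at 20 min lay near the level of SSA2 at 0 min, so its rise may be understated, which was not tested. The cochaperone CNS1, with a log2 change of -1.26, fell.

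Chaperonins were split between rises and falls. Of 10 chaperonin genes 4 rose and 5 fell, with a median of -0.08 (0.09 after quantile normalization). HSP60 and HSP10, which form the mitochondrial folding chamber, changed by log2 0.85 and 1.05, and both signs turned with spike-in centring (-0.38 and -0.17). Of the cytosolic CCT ring, CCT3 fell the most among those named, by log2 -0.98. In the endoplasmic reticulum 10 of 13 folding genes rose and none fell (median 0.67, -0.56 with spike-in centring). ERO1, the oxidase that drives disulfide bonds there, had signals of 7091, 8229 and 9939 at 20 min, against 1425, 1387 and 1409 at 0 min, without overlap, a log2 change of 2.57 ± 0.12 (SE).

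Proteasome genes rose as a list. All 39 tested proteasome genes rose, with a median of 0.81, and this sign turned with spike-in centring (-0.42). The medians of the list in the 3 cultures were 0.75, 0.79 and 0.85. NAS2, an assembly chaperone of the regulatory particle, had signals of 808, 935 and 1008 at 20 min, against 266, 273 and 292 at 0 min, and UBP6, its deubiquitinase, had 3588, 3533 and 3926 at 20 min, against 1735, 1745 and 1696 at 0 min. Neither gene's arrays overlapped, at log2 changes of 1.72 and 1.09 (-0.13 with spike-in centring for UBP6). Of 19 ubiquitin genes 15 rose and 4 fell (median 0.71, -0.52 with spike-in centring). UBI4, the polyubiquitin gene, changed by log2 2.78 and the conjugating enzyme UBC5 by 1.84.

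The general stress genes held many of the largest rises. All 33 tested members rose, with a median log2 change of 4.11, and the medians in the 3 cultures were 4.30, 4.23 and 4.002. HXT5, a hexose carrier of slow-growing cells, had signals of 3294, 3286 and 3641 at 20 min, against 36.96, 32.5 and 29.1 at 0 min. ALD3, a cytosolic aldehyde dehydrogenase, had signals of 2639, 2859 and 2056 at 20 min, against 34.2, 36.6 and 20.3 at 0 min. FMP45, a membrane protein of the eisosome region, had signals of 3232, 2709 and 2273 at 20 min, against 38.3, 39.5 and 31.03 at 0 min. In each of the 3 genes the arrays at 20 min lay above those at 0 min, with log2 changes of 6.70 ± 0.14, 6.41 ± 0.20 and 6.23 ± 0.18 (SE). All 9 stationary phase genes rose as well (median 2.72), led by SPG4 at 5.36. DDR2, a small multistress protein, and NQM1, a transaldolase, changed by log2 6.21 and 6.12.

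Storage and protective carbohydrates were the metabolic lists with the largest positive medians. Of 10 trehalose genes 9 rose and 1 fell, with a median of 2.21. TSL1, a regulatory subunit of trehalose synthase, had signals of 10958, 11631 and 10665 at 20 min, against 388, 516 and 637 at 0 min. PGM2, the phosphoglucomutase that feeds trehalose and glycogen, had 8526, 8675 and 7637 at 20 min, against 234, 309 and 368 at 0 min, while its relative PGM1 had 681, 665 and 803 at 20 min, against 1824, 2011 and 2050.1 at 0 min. Neither pair of times overlapped, and PGM2 changed by log2 4.79 while PGM1 changed by -1.46. The degrading enzymes NTH1 and ATH1 also rose, at 3.09 and 2.73. Of 13 glycogen genes 12 rose and none fell (median 1.87), among them the phosphorylase GPH1 at log2 5.25 and the debranching enzyme GDB1 at 3.62. Of 10 glycerol genes 8 rose and none fell (median 1.30). GCY1, a glycerol dehydrogenase, changed by log2 4.21.

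Antioxidant genes were mixed. Of 22, 14 rose and 4 fell, with a median of 0.48 (-0.75 with spike-in centring). CTT1, the cytosolic catalase, had signals of 1872, 1778 and 1468 at 20 min, against 78.6, 94.9 and 86.6 at 0 min, and TSA2, a stress-induced peroxiredoxin, had 1396, 1624 and 1340.0 at 20 min, against 82.6, 91.2 and 91.5 at 0 min. The mitochondrial peroxiredoxin PRX1 changed by log2 3.33, against 4.29 for CTT1 and 4.04 for TSA2. Among those that fell was YHB1, the flavohemoglobin that detoxifies nitric oxide, with signals of 659.9, 618 and 445 at 20 min, against 8757, 8156 and 8903 at 0 min and a log2 change of -3.92. GPX2, a glutathione peroxidase, changed by -1.79.

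Regulators of the response were themselves measured. Of 13 heat and stress transcription factors 10 rose and 1 fell (median 0.87, -0.35 with spike-in centring). XBP1, a stress-induced repressor of cyclin genes, had signals of 249.8, 317 and 317 at 20 min, against 23.8, 25.1 and 22.1 at 0 min, and USV1, a zinc finger factor, had 447, 576 and 441 at 20 min, against 51.4, 47.3 and 68.7 at 0 min. Both genes had no overlap between times, at log2 3.63 and 3.14. In the Ras and protein kinase A list 11 of 14 rose and 3 fell (median 1.10, -0.12 with spike-in centring). The members that rose the most lower the pathway's activity: the phosphodiesterase PDE1 at 2.26 and the Ras GTPase activator IRA2 at 2.06, with the opposing kinase YAK1 at 1.48. RAS1 itself fell, at log2 -1.75, as did the catalytic subunit TPK3 at -0.54, while the catalytic subunit TPK2 rose, at 1.47.

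Genes for assembling ribosomes, the known targets of the PAC-binding repressors, fell in the strain without TOD6. Of 130 tested genes in 3 lists of ribosome assembly, 126 fell, with a median log2 change of -1.88. In the small subunit processome, which cuts and folds the precursor of the small subunit, 55 of 58 fell and none rose (median -1.84). All 61 genes of 60S assembly fell (median -1.90), and in late 40S maturation 10 of 11 fell and 1 rose (median -1.70). For 126 of the 130 genes the arrays of the 2 times did not overlap, beside 82.2% over all genes.

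Single genes of these lists show the size of the fall. KRE33, the acetyltransferase of small subunit RNA, had signals of 342, 282 and 235 at 20 min, against 3000.4, 2675 and 2958 at 0 min, a log2 change of -3.34 ± 0.14 (SE, adjusted p = 8.2e-15). RRP5, which holds both precursor subunits, had signals of 400.1, 358 and 259 at 20 min, against 2942, 2948 and 2929.7 at 0 min, and the assembly factor KRR1 had 191, 194 and 213 at 20 min, against 1551, 1745 and 1474 at 0 min. Neither gene's arrays overlapped, and the log2 changes were -3.14 and -2.996. Among 60S factors, NOP7, a processing factor of the large subunit, had signals of 356, 266 and 223 at 20 min, against 2774, 2550.3 and 2704 at 0 min and SDA1, needed for its export, had 289, 158 and 153 at 20 min, against 2268, 1923 and 1900.2 at 0 min. Their log2 changes were -3.27 ± 0.14 and -3.40 ± 0.20 (SE), again with no overlap. DIM1, the dimethylase of small subunit RNA, and LTV1, an export factor, changed by -3.13 and -2.86. HRR25, a casein kinase that also works outside ribosome assembly, was the late 40S member that rose, at log2 0.42 (-0.81 with spike-in centring).

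The fall was also read by replicate number, and the differences between the numbers were not tested. The median of the small subunit processome was -1.51 in culture 1, -1.83 in culture 2 and -2.10 in culture 3. For 60S assembly the medians were -1.64, -1.97 and -2.11, and for proteins of the large subunit -1.64, -1.92 and -2.10. Culture 1 had the smallest fall in each of these lists. Its spike-in shift between times, 1.95, was also the largest of the cultures, and the part of this in the smaller fall was not tested.

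Ribosomal proteins fell to a like depth. Of 75 genes for large subunit proteins 74 fell and 1 rose (median -1.87), and of 52 for small subunit proteins 51 fell and none rose (median -1.77). RPS26B had signals of 842, 691 and 523 at 20 min, against 9819, 9598 and 8799 at 0 min, RPS0B had 1495, 1009 and 707 at 20 min, against 12785, 13515 and 13286 at 0 min, and RPL13A had 1375, 999 and 789 at 20 min, against 10230, 11015 and 12399 at 0 min. In all of them the arrays at 20 min lay below those at 0 min, with log2 changes of -3.80, -3.69 and -3.44. RPS0B at 0 min lay near the level of SSA2 at 0 min, so its fall may be understated, which was not tested. Many ribosomal proteins are encoded by near-identical gene copies, so a probe set may also read its copy. The member that rose was RPL15B, with signals of 1667, 1759 and 1752 at 20 min, against 789, 804 and 702 at 0 min and a log2 change of 1.18 (-0.05 with spike-in centring), while its copy RPL15A had 4321, 3827 and 3389.9 at 20 min, against 10358, 11217 and 12351 at 0 min and -1.56. Mitochondrial ribosomal proteins ran the other way: 47 of 54 rose and none fell, with a median of 0.48 (-0.74 with spike-in centring).

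The machinery that makes and trims ribosomal RNA fell in part. Of 37 genes of RNA polymerases I and III, 26 fell and 7 rose (median -0.69). RPA190, the largest subunit of polymerase I, had signals of 641, 589 and 424 at 20 min, against 4634, 4713 and 4789 at 0 min, and RPA135, the next largest, had 1048, 784 and 535 at 20 min, against 6534, 6198 and 6160.5 at 0 min. Both were free of overlap, at log2 -3.12 and -3.05. TFC3 and TFC7, subunits of the polymerase III factor TFIIIC, rose by log2 0.60 and 0.46, and with spike-in centring had -0.62 and -0.77. Of 18 genes of the exosome and TRAMP, 14 fell and 1 rose (median -0.70), led by the helicase MTR4 at -3.37 and the exosome cofactor LRP1 at -2.10.

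Translation itself was the next group of falls. All 20 genes in the list of cytosolic aminoacyl tRNA synthetases fell (median -1.57). The list does not hold GRS2, the minor glycyl gene, which rose by log2 2.06. CDC60, the leucyl enzyme, had signals of 956, 893 and 753 at 20 min, against 4417, 5186 and 4562 at 0 min, and DED81, the asparaginyl enzyme, had 1987, 1878 and 1552 at 20 min, against 8013, 8079 and 7622 at 0 min. There was no overlap, and the log2 changes were -2.45 and -2.14. Of 36 translation factors 30 fell and 1 rose (median -1.02). TIF3, the initiation factor eIF4B, changed by -2.83 and TIF4631, a form of eIF4G, by -2.52. The gene that rose was HEF3, a copy of elongation factor 3, at log2 1.66, while the main copy YEF3 changed by -1.29. Of 28 tRNA modification genes 23 fell and 1 rose (median -1.08), and among the 15 nuclear transport receptors 8 fell and 7 rose. KAP123, which imports ribosomal proteins, had signals of 544, 507 and 539 at 20 min, against 4516, 5088 and 4569.8 at 0 min and a log2 change of -3.15. GSP2, a Ran GTPase, ran the other way, at 4367, 4638 and 4477 at 20 min, against 595, 643 and 580.1 at 0 min and a log2 change of 2.89.

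Known regulators of ribosome genes were mostly small in change. Of 15, without the deleted TOD6, 7 rose, 2 fell and 6 did not pass, and the median of 0.16 became -0.0027, -0.04, -0.12 and -1.07 with quantile, median, hybridization control and spike-in scaling. STB3, a repressor that binds the RRPE element of ribosome biogenesis promoters, had signals of 693, 803 and 849 at 20 min, against 363, 365 and 290.4 at 0 min, a log2 change of 1.21 (-0.02 with spike-in centring). CRF1, a corepressor of ribosomal protein genes, had 17.8, 23.00 and 15.04 at 20 min, against 3.07, 11.4 and 9.05 at 0 min, with 1 of 3 arrays at 0 min above background. FHL1, the factor at ribosomal protein promoters, fell, at log2 -0.85 and signals of 101, 93.96 and 90.6 at 20 min, against 161, 182 and 172 at 0 min. RPD3, the deacetylase that TOD6 recruits, changed by 0.46 (-0.76 with spike-in centring), and the kinase SCH9 changed by -0.49 with arrays that overlapped.

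**Figure D2:**
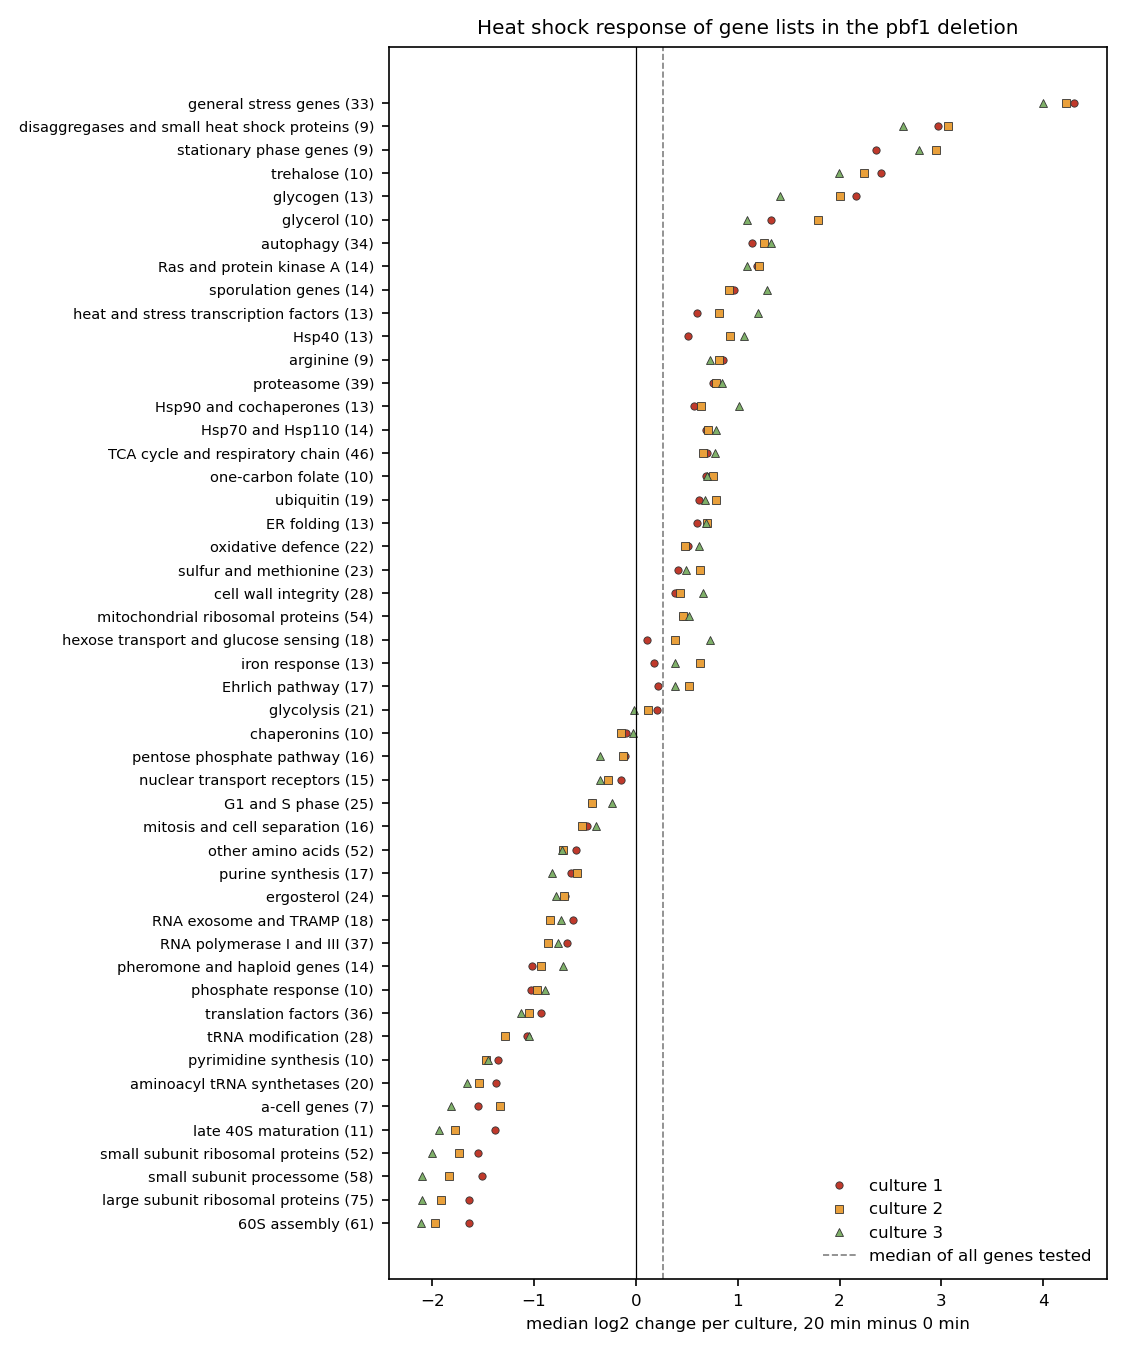
Median log2 change (20 min minus 0 min, horizontal axis) of 49 gene lists in each of the 3 cultures of the pbf1 deletion, with the number of tested genes in brackets, and a dashed line at the all-gene median of 0.27. The general stress genes have the highest median in each culture, and the ribosome assembly and ribosomal protein lists lie between -1.38 and -2.11.

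In central carbon metabolism several genes for minor enzyme forms rose. Of 21 glycolysis genes 8 rose, 2 fell and 11 did not pass, with a median of 0.08 (-0.12 with median centring, -0.20 with hybridization control centring and -1.15 with spike-in centring). CDC19, the main pyruvate kinase, was at the top of the signal range at both times, 17195, 17084 and 16024 at 20 min, against 15657, 16643 and 17881 at 0 min, so neither a change nor the lack of one is read from it. PYK2, the minor pyruvate kinase, had 3016, 2803 and 2660.5 at 20 min, against 399, 364 and 424 at 0 min, without overlap and with a log2 change of 2.84. The hexokinase HXK1 and the glucokinase GLK1 changed by 3.27 and 2.04. HXK2, the hexokinase of glucose growth, fell, at log2 -0.21 (0.18 after quantile normalization), and HXT1 and HXT3, carriers for high glucose, changed by -1.55 and -1.69. HXT7, a high-affinity carrier, had signals of 3852, 3612 and 2769.5 at 20 min, against 405, 496 and 369.6 at 0 min and rose by log2 3.01. In the list of hexose transport and glucose sensing 6 of 18 rose and 4 fell (median 0.51, -0.06 after quantile normalization and -0.71 with spike-in centring).

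The pentose phosphate pathway held rises and falls. Of 16 genes 8 fell and 7 rose, with a median of -0.19 (0.09 after quantile normalization). SOL4, a 6-phosphogluconolactonase, had signals of 6901, 7443 and 6944 at 20 min, against 144, 171 and 241 at 0 min, and GND2, the minor 6-phosphogluconate dehydrogenase, had 1269, 1186 and 1052 at 20 min, against 56.9, 57.5 and 46.02 at 0 min. GND1, the main form, had 5865, 6843 and 6772 at 20 min, against 5468, 6224 and 6819 at 0 min, which overlapped. The log2 changes were 5.29 for SOL4, 4.45 for GND2 and 0.08 for GND1, which did not pass. RKI1, the ribose-5-phosphate isomerase, had 431, 295 and 251 at 20 min, against 3699, 3867 and 3908 at 0 min and fell by log2 3.59, and the phosphoribosyl pyrophosphate synthase PRS1 changed by -1.79.

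Respiration genes rose in moderate steps. Of 46 genes of the TCA cycle and respiratory chain 35 rose and 6 fell (median 0.72, -0.51 with spike-in centring). CYC7, the cytochrome c isoform of low oxygen and stress, had signals of 2767, 2784 and 2595 at 20 min, against 86.1, 108 and 123 at 0 min, while CYC1, the main form, had 451, 422 and 398 at 20 min, against 783, 799.7 and 647 at 0 min. Their arrays did not overlap, at log2 4.70 for CYC7 and -0.81 for CYC1. The mitochondrial citrate synthase CIT1 changed by 1.94 and the oxidase subunit COX5B by 2.61. Autophagy genes rose in 32 of 34 cases, with 1 fall (median 1.14, -0.09 with spike-in centring), among them the membrane tag ATG8 at log2 2.70 and the kinase ATG1 at 2.20.

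Related genes were then counted as pairs. In 32 pairs of metabolic, chaperone and translation genes, 12 had a rise of the first gene and a fall of the second, in the order the plot of pairs names them. In 8 pairs the first gene rose beside a gene that did not pass, and in 9 both rose. The remaining pairs were HMG2 and HMG1, which both fell, ANB1, which fell beside HYP2, which did not pass, and the serine hydroxymethyltransferases. Of these SHM1, the mitochondrial form, had signals of 1457, 1404 and 1281 at 20 min, against 4087, 4031 and 4201 at 0 min and SHM2, the cytosolic form, had 5998, 5616 and 6002 at 20 min, against 2986, 2668 and 2949.7 at 0 min. SHM1 changed by log2 -1.57 and SHM2 by 1.04 (-0.19 with spike-in centring). BAT2 and BAT1, the cytosolic and mitochondrial aminotransferases of branched amino acids, changed by 1.88 and -2.36. The CTP synthases URA8 and URA7 changed by 1.20 (-0.03 with spike-in centring) and -3.03. Related sequences may share probe signal, and the pairs were chosen with earlier results known.

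**Figure D3:**
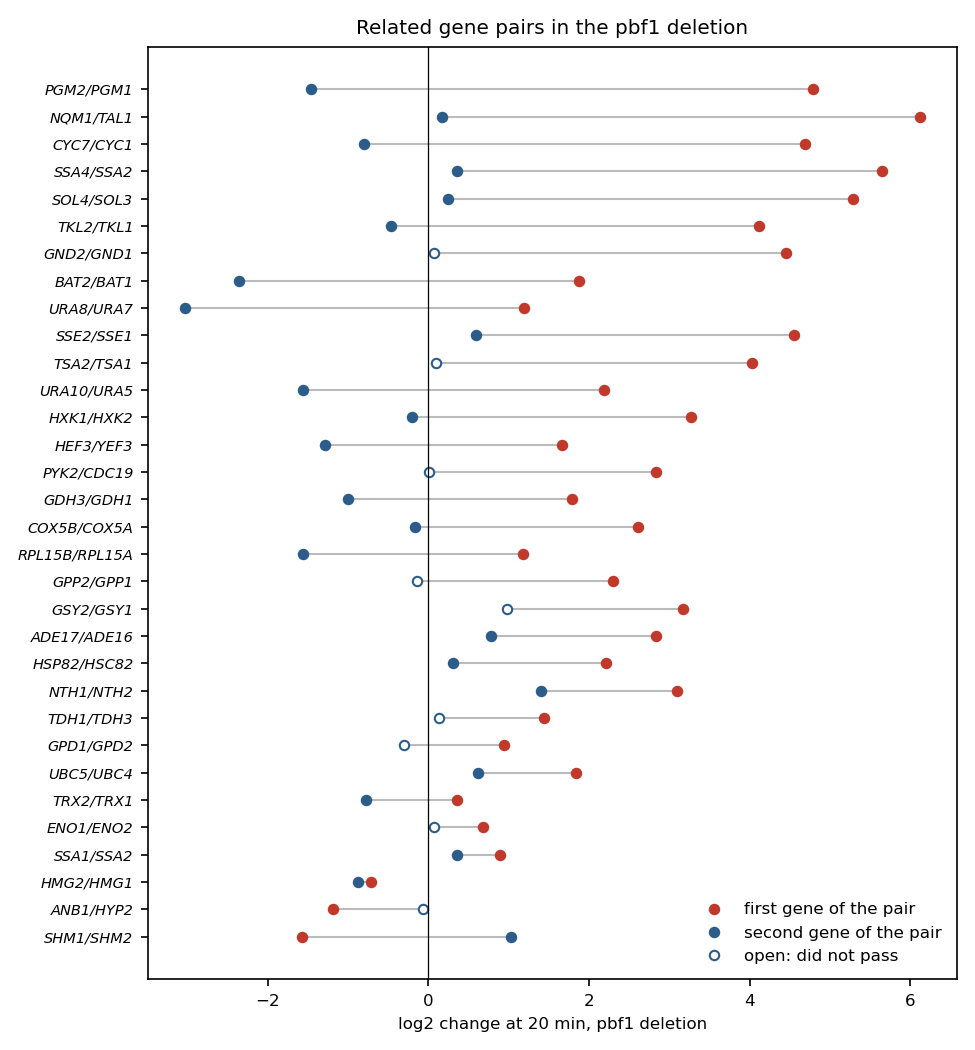
Log2 change at 20 min (horizontal axis) of both genes of 32 related pairs in the pbf1 deletion, red for the first gene named, blue for the second, open where the test was not passed. PGM2 at 4.79 against PGM1 at -1.46 is the widest pair, and HMG2 and HMG1 lie together at -0.71 and -0.88.

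Nucleotide and amino acid synthesis was divided by pathway. Of 17 purine genes 10 fell and 5 rose (median -0.68). AAH1, the adenine deaminase that is high in growing cells, had signals of 356, 165 and 137 at 20 min, against 3370.2, 2856 and 3087 at 0 min, and the inosinate dehydrogenase IMD4 had 1086, 848 and 733 at 20 min, against 6154, 6445 and 6282 at 0 min. Without overlap, they fell by log2 3.95 and 2.84. ADE17, which makes inosinate, rose, at log2 2.83. Of 10 pyrimidine genes 8 fell and 2 rose (median -1.47), with the dihydroorotate dehydrogenase URA1 at -3.21.

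Folate enzymes were mostly higher at 20 min. Of 10 genes 8 rose and 2 fell (median 0.69, -0.54 with spike-in centring). GCV1 and GCV2, subunits of the glycine cleavage complex, had signals of 3732, 4083 and 4902 at 20 min, against 293, 219.9 and 262 at 0 min and of 4898, 5284 and 5426 at 20 min, against 576, 454 and 614 at 0 min. Neither overlapped, at log2 4.04 and 3.26. MIS1, the mitochondrial folate synthase, had 309.9, 241 and 192 at 20 min, against 3469.8, 3916 and 3154 at 0 min and fell by log2 3.85.

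Sulfur, arginine and other amino acid genes differed in direction. Of 23 sulfur and methionine genes 14 rose and 4 fell (median 0.56, -0.67 with spike-in centring). STR3, the cystathionine beta-lyase, had 308, 324 and 274 at 20 min, against 40.3, 34.98 and 23.95 at 0 min and the sulfate carrier SUL1 had 47.1, 56.8 and 61.96 at 20 min, against 12.7, 13.7 and 12.8 at 0 min. They rose by log2 3.22 and 2.07, while the S-adenosylmethionine synthetases SAM1 and SAM2 changed by -2.54 and -1.44. Of 9 arginine genes 8 rose and 1 fell (median 0.72, -0.51 with spike-in centring), with the ornithine transcarbamylase ARG3 at 3.19. Of 52 other amino acid genes 35 fell and 11 rose (median -0.62), from ARO4, the entry to aromatic synthesis, at -3.09 to ARO9, an aminotransferase of aromatic breakdown, at 4.19. Of 17 genes of the Ehrlich pathway, which turns amino acids into fusel alcohols, 9 rose, beside 51.2% over all genes, and 4 fell (median 0.49, -0.73 with spike-in centring). ARO10, its decarboxylase, had signals of 6971, 7176 and 6504 at 20 min, against 125, 262 and 128 at 0 min and a log2 change of 5.42.

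Cell cycle and mating genes were mostly lower at 20 min. Of 25 genes of G1 and S phase 15 fell and 5 rose (median -0.39). CLN2, a G1 cyclin, had signals of 123, 131 and 86.7 at 20 min, against 758, 710.3 and 657 at 0 min, and CLB6, an S phase cyclin, had 19.8, 34.2 and 33.2 at 20 min, against 266, 236 and 252 at 0 min. Their log2 changes were -2.66 and -3.15, without overlap. SIC1, an inhibitor of the S phase cyclins, rose by 0.68 (-0.54 with spike-in centring). Of 16 genes of mitosis and cell separation 10 fell and 1 rose (median -0.50), and the largest fall of any gene tested was HO, the mating type endonuclease, at 48.3, 47.99 and 48.2 at 20 min, against 866, 891 and 693 at 0 min and a log2 change of -4.07. Laboratory strains of this background carry an inactive allele of HO.

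Of 7 a-cell genes 6 fell and 1 rose (median -1.46). AGA2, the a-agglutinin subunit, had signals of 262, 226 and 130.2 at 20 min, against 1606, 1443 and 1268 at 0 min and STE2, the alpha-factor receptor, had 1897, 1611 and 1033 at 20 min, against 5561, 5207 and 5196 at 0 min. The log2 changes were -2.86 and -1.86, and neither gene's arrays overlapped. Of 14 pheromone and haploid genes 9 fell and 4 rose (median -0.96), with FAR1, which stops the cycle for mating, at -2.37. Of the alpha-cell genes 3 of 4 rose (median 0.69, -0.54 with spike-in centring), and STE3 changed by log2 1.67. Sporulation genes, silent in haploids, rose in 8 of 14 cases and fell in 2, beside 51.2% rises over all genes. Their median was 1.08, 0.26 after quantile normalization and -0.14 with spike-in centring, and 2 of them were at background on all 3 arrays at 0 min. DMC1, the meiotic recombinase, had signals of 264, 245 and 256 at 20 min, against 29.7, 29.9 and 25.5 at 0 min and a log2 change of 3.17.

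Cell surface and nutrient lists completed the picture. Of 28 cell wall integrity genes 18 rose and 7 fell (median 0.44, -0.79 with spike-in centring). PIR3, a wall glycoprotein, had signals of 2756, 2219 and 1963 at 20 min, against 52.7, 60.8 and 61.1 at 0 min, and GSC2, the stress form of glucan synthase, had 1981, 2506 and 3148 at 20 min, against 526, 425 and 459.6 at 0 min. FKS1, its growth form, had 3221, 3045 and 2600.2 at 20 min, against 5686, 5794 and 6184 at 0 min. The log2 changes were 5.30, 2.42 and -0.999, each without overlap. Of 24 ergosterol genes 20 fell and 2 rose (median -0.75). Of 10 phosphate genes 8 fell and none rose (median -0.92), with the acid phosphatase PHO5 at 661, 530.0 and 617 at 20 min, against 3143, 2857 and 3674 at 0 min and a log2 change of -2.42. Of 13 iron genes 7 rose, beside 51.2% over all genes, and 5 fell (median 0.57, -0.07 after quantile normalization and -0.66 with spike-in centring). They ranged from the heme oxygenase HMX1 at 3.56 to the reductase FRE1 at -1.84.

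Genes at background before the shift have only a lower bound. For 50 genes all 3 arrays of 1 time were at background while the other time was brighter, at 20 min for 47 of them and at 0 min for 3. The brighter time needed only 1 array above background. The bound reached 2-fold for 21 of the 47. Not all 50 genes passed the test: in limma the adjusted p was 0.50 for MER1 and 0.33 for ECM11, among others. SIP4, an activator of gluconeogenesis genes, had signals of 202, 247 and 294 at 20 min, against 6.28, 1.15 and 4.80 at 0 min and was at least 23.5-fold higher at 20 min. YLR012C, an uncharacterized gene with the highest fitted change, had 51.1, 38.5 and 64.9 at 20 min, against 0.432, 0.516 and 0.413 at 0 min and was at least 4.83-fold higher. A bound is the mean log2 signal at 20 min against the background level of the arrays at 0 min.

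The next question was whether the response without TOD6 departs from that of the wild type. No gene of the 5395 passed the test of the difference in response (limma interaction, lowest adjusted p = 0.999), which is 0.0% of the genes tested, and 183 had an unadjusted p under 0.05, 115 with a higher and 68 with a lower log2 change in the pbf1 deletion than in the wild type. The median standard error of a difference was log2 0.143, and the 95% interval was on median 0.299 to each side. For 5066 genes (93.9%) the interval lay within 1 log2 of equal response. The median size of the difference was 0.0867, against a median size of the response itself of 0.690 in the pbf1 deletion. A p that misses the threshold does not show that the strains respond alike.

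Call by call, 2629 genes rose in both strains and 1532 fell in both, and no gene had opposite calls. The pbf1 deletion alone passed for 134 rises and 108 falls, and the wild type alone for 123 rises and 68 falls, but none of these differences passed its own test. The genes named are those with the smallest unadjusted p in each direction. GRS2, the minor glycyl tRNA synthetase gene, changed by log2 2.06 in the pbf1 deletion and 1.74 in the wild type, a difference of 0.32. SSE2, an Hsp110, changed by 4.55 against 4.03, and BDH1, the butanediol dehydrogenase, by 2.87 against 2.26. RCK1, a stress kinase, changed by 1.47 in the pbf1 deletion against 2.49 in the wild type, and PDC6, the minor pyruvate decarboxylase, by 0.93 (-0.30 with spike-in centring) against 2.14. VRG4, the Golgi carrier for GDP-mannose, changed by -1.44 against -1.16.

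By list, the response was set beside the wild type in the same way. The small subunit processome had a median of -1.84 in the pbf1 deletion and -2.01 in the wild type, and 60S assembly had -1.90 and -2.07. The median of the gene-by-gene difference was 0.10 for the processome and 0.15 for 60S assembly, beside 0.01 over all genes. Both medians depended on 1 array each way: without the first pbf1 array at 20 min they were -0.03 and -0.03, and without the first wild type array at 20 min 0.32 and 0.38. With spike-in centring they were -0.12 and -0.07. Proteins of the large subunit had a median of -1.87 against -1.97, and general stress genes 4.11 against 4.14. Gene by gene, the median difference was 0.06 for large subunit proteins (-0.03 to 0.17 without single arrays). For general stress genes it was 0.11 (0.03 to 0.18), with 21 of 33 genes above 0. With spike-in centring these were -0.16 and -0.11. Other lists had larger median differences: -0.19 for the 23 sulfur and methionine genes (-0.24 to -0.14 without single arrays), 0.24 for the 13 iron genes (0.16 to 0.31) and 0.58 for the 4 alpha-cell genes (0.36 to 0.80). The 10 phosphate genes had -0.20 (-0.19 to -0.11), and the 4 deleted marker genes had 0.33 (-0.13 to 0.52). The 10 trehalose genes had 0.18 (0.06 to 0.22), which became -0.05 with spike-in centring. Among the alpha-cell genes MF(ALPHA)1 was at background on every array of the pbf1 deletion, as was URA3 among the marker genes. The median change of the alpha-cell genes in the 3 wild type cultures was 0.19, -0.29 and 0.59. No departure from the wild type is therefore read from the medians of the alpha-cell or marker genes. Of the sulfur and methionine genes 6 were lower at an unadjusted p under 0.05, and no gene of these lists passed.

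**Figure D4:**
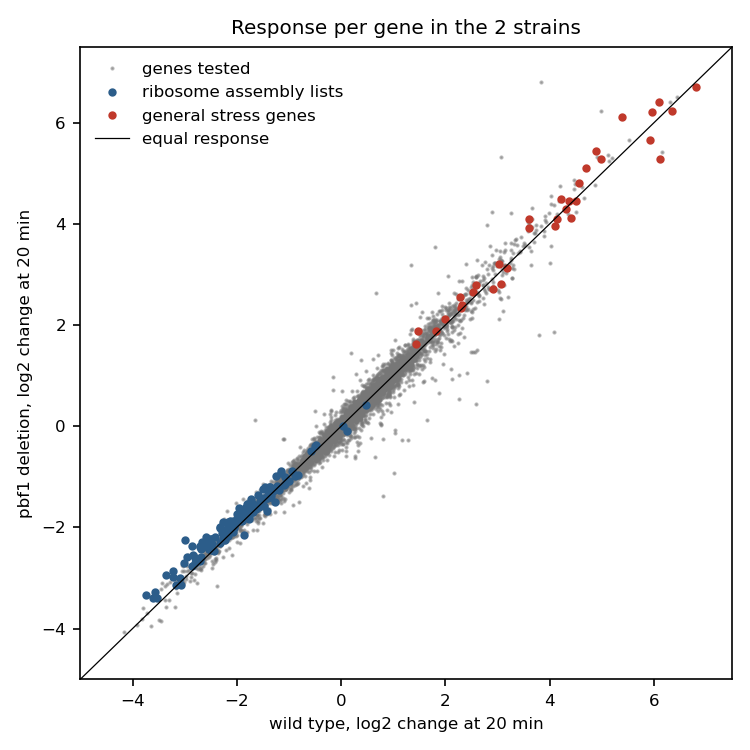
Log2 change at 20 min of 5395 genes in the pbf1 deletion (vertical axis) against the wild type (horizontal axis), with ribosome assembly genes in blue, general stress genes in red and a line of equal response. Most genes lie along the line, and the points farthest above it include YLR012C, which was at background on all 3 arrays of the pbf1 deletion at 0 min.

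The loss of TOD6 and the loss of DOT6 were then set against each other. The response differed between the pbf1 and pbf2 deletions for 105 genes (limma interaction, Benjamini-Hochberg adjusted p under 0.05), 23 with a higher value in the pbf1 deletion (0.426% of the genes tested) and 82 with a lower one (1.52%). All 23 rose in the pbf1 deletion, and 78 of the 82 fell in it, 71 of them in both strains. The wild type response lay nearer to that of the pbf1 deletion for 92 of the 105 genes and nearer to that of the pbf2 deletion for 13. The 105 genes were picked by the difference between the deletions, and the share over all genes was not counted. No trait of either strain is therefore read from this count. The comparisons of the pbf1 deletion with the pbf2 deletion and with the wild type share the pbf1 arrays.

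The count depends on single arrays and on scaling. Without 1 pbf1 array at 20 min, 44 higher and 174 lower genes passed without replicate 1, 10 and 45 without replicate 2, and 10 and 46 without replicate 3. Leaving out 1 pbf1 array at 0 min gave 15 and 55, 14 and 53, or 14 and 60. For the pbf2 arrays it gave 12 and 52, 10 and 42, or 12 and 56 at 20 min, and 22 and 61, 11 and 53, or 11 and 47 at 0 min. With hybridization control centring 0 higher and 1 lower gene passed, and with spike-in centring no gene passed in limma (78 at an unadjusted p under 0.05).

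Of the 23 genes with a higher value, the 6 with the largest differences are named, and 3 of them encode iron or copper transporters. GCV1, described above, changed by log2 4.04 without TOD6, 3.09 without DOT6 and 3.58 in the wild type. ENB1, an enterobactin carrier, changed by 1.91, 0.99 and 1.34 in these strains, and ARN1, a siderophore carrier, by 0.91, 0.32 and 0.62. CCC2, the copper ATPase that loads the iron oxidase, changed by 1.16, 0.50 and 0.86. The differences between the pbf1 and pbf2 deletions were 0.94 ± 0.24, 0.92 ± 0.21, 0.59 ± 0.12 and 0.65 ± 0.16 (SE). In each of these the wild type lay between the deletions, and with spike-in centring the change in the pbf1 deletion turned to -0.32 for ARN1 and -0.07 for CCC2. SSE2 and VMR1, a vacuolar transporter, had differences of 0.74 and 0.64. Over the 13 iron genes the median difference was 0.41, beside 0.04 over all genes, with 1 gene past the test. With spike-in centring it was -0.09, beside -0.46 over all genes.

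Of the 82 genes with a lower value, the 6 with the largest differences are named. FAT3, a fatty acid uptake protein, changed by log2 0.34 without TOD6, which did not pass, 1.78 without DOT6 and 0.22 in the wild type. YCT1, a cysteine carrier, changed by 0.46, 1.53 and 0.58, and SAM3, a carrier of S-adenosylmethionine, by -1.01, -0.09 and -0.60. For FAT3 and YCT1 the wild type lay near the pbf1 deletion, and after quantile normalization the change in the pbf1 deletion was -0.47 and -0.21. The methyltransferases TRM13, EFM4 and TRM8, for tRNA, an elongation factor and tRNA, fell in the pbf1 deletion by log2 1.81, 2.54 and 2.30, against changes of -0.86, -1.64 and -1.41 in the pbf2 deletion. The differences were -1.44, -1.07, -0.91, -0.95, -0.90 and -0.89.

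By list, part of the lower values were genes for translation and amino acids, beside 1.52% over all genes. Of 75 genes for large subunit proteins 7 were lower, of 52 for small subunit proteins 5, of 20 aminoacyl tRNA synthetases 4, of 36 translation factors 3 and of 130 ribosome assembly genes 5. Of 23 sulfur and methionine genes 4 were lower, and of 52 other amino acid genes 6. The median difference was -0.42 for large subunit proteins, -0.36 for small subunit proteins, -0.32 for the processome and -0.33 for 60S assembly, beside 0.04 over all genes. These medians moved with single arrays: without the first pbf1 array at 20 min the processome had -0.51 and 60S assembly -0.53, and without the third -0.18 and -0.22. The median of 60S assembly was -1.90 in the pbf1 deletion and -1.47 in the pbf2 deletion.

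**Figure D5:**
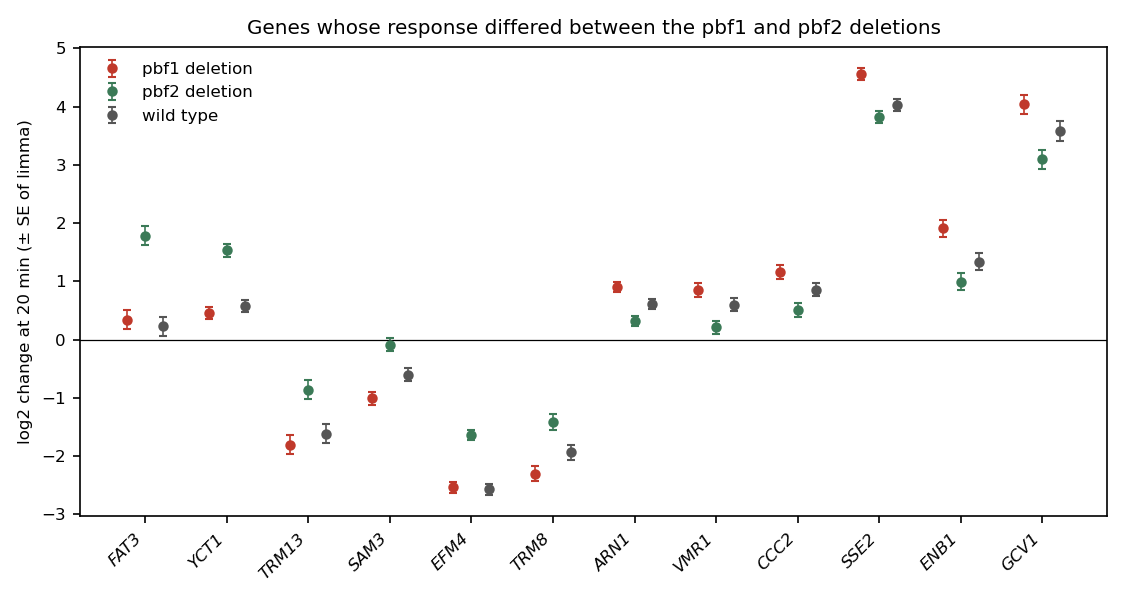
Log2 change at 20 min (vertical axis, with the standard error of limma) of the 12 genes with the largest tested difference in response between the pbf1 and pbf2 deletions, shown for the pbf1 deletion (red), the pbf2 deletion (green) and the wild type (grey). FAT3 and YCT1 stand at 1.78 and 1.53 in the pbf2 deletion and below 1 in the other strains, and GCV1 stands at 4.04 in the pbf1 deletion.

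The authors' deposited table gives its own log2 ratio of 20 min over 0 min for the pbf1 deletion. In the authors' deposited table the median ratio over the 5395 genes was 0.048, against the fitted 0.27. The authors' deposited table had a median of -2.12 for 60S assembly, -1.95 for the processome and 3.88 for general stress genes. Its median had the opposite sign to the fit for iron genes (-0.077 against 0.57) and hexose transport (-0.0087 against 0.51). The same held for regulators of ribosome genes (-0.040 against 0.16), the pentose phosphate pathway (0.089 against -0.19) and chaperonins (0.12 against -0.083). Its medians were smaller for alpha-cell genes (0.10 against 0.69) and sporulation genes (0.37 against 1.08). For 196 genes called here the authors' deposited table had the opposite sign, 184 of them rises in the fit.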

How the data were processed

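The arrays hold signals of the pbf1 deletion, the pbf2 deletion and the wild type, 3 arrays per strain and time. The double deletion entered the fit only to share the estimate of spread. The deposited values are intensity values, 1 per probe set and array, which the authors made with MAS5 per the submitters' processing notes. GeneChip Operating Software 1.4 extracted the images, per the file headers and read-me text that the authors deposited. The authors' deposited table holds log2 ratios of 20 min over 0 min made with GoldenSpike, per its read-me. Its 4 rate columns were not used, since those of the 3 deletions share 1 name, and 1 ratio column, that of the double deletion, was not used either. No genome build was used.

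Of 10928 probe sets, 5498 name an S. cerevisiae gene and 1746 name genes outside it. For 47 genes with several probe sets the brightest was taken, and 12 symbols were updated. The test was run on genes with a mean log2 signal over 2.35, which is the 90th percentile of those outside probe sets and kept 5395 of 5449 genes. All 24 arrays were fitted as 8 group means on log2 signal, with no pseudocount, in limma 3.58.1 (R 4.3.3, with a trend in eBayes and residual degrees of freedom of 16). All p-values of the fit are two-sided, were adjusted over all tested genes (Benjamini-Hochberg) and were read at a threshold of 0.05. The fit was tested on simulated data. The number of arrays limits the precision. Python 3.11.15 made the tables (pandas 2.3.3, numpy 2.4.6, scipy 1.17.1) and the plots (matplotlib 3.10.9).

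The members and the 53 gene lists were chosen with earlier results of these data known. Named genes were TOD6 and DOT6, the 12 largest rises and falls, the 6 largest or lowest-p response differences in each direction, up to 4 called members of each list in its main direction and 3 in the other, members of the gene pairs, marker genes and neighbours of TOD6. From these the text names those that describe each list. MF(ALPHA)1 and TDH3 are named as a marker and as the brightest gene. Changes per culture pair arrays of the same replicate number. Over 12 pairs of same-numbered arrays the correlation of their deviations was -0.041 to 0.186, and 3 pairs exceeded 0.1. For 7 of the 12 the same number had a higher correlation than the other numbers. These values do not settle whether the arrays are paired. The numbers were not used as a block in the reported fit, and the block was run as an alternative. Alternatives were other scalings, filters, a pseudocount of 16, fewer arrays, no trend, a replicate block, probe set means and leaving out each array. Promoter motifs and protein sequences were not analysed here.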

Additional observations from a re-analysis of the deposited data

Results flagged for a closer look

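The heat shock response differed between the pbf1 deletion and the pbf2 deletion for 105 genes by limma's interaction test. Of these, the 12 with the largest differences in each direction were flagged. The difference, pbf1 deletion minus pbf2 deletion on the log2 scale, was 0.94 for GCV1, 0.92 for ENB1, 0.74 for SSE2, 0.65 for CCC2, 0.64 for VMR1 and 0.59 for ARN1. It was -1.44 for FAT3, -1.07 for YCT1, -0.95 for TRM13, -0.91 for SAM3, -0.90 for EFM4 and -0.89 for TRM8. With spike-in centring none of the 5395 genes passed this test in limma, and 78 had an unadjusted p under 0.05.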

How the results depend on the processing

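The counts of the heat shock response of the pbf1 deletion were 2763 rises and 1640 falls, and under all alternatives but spike-in centring (262 and 2801) they stayed within 1.5 times. Leaving out single arrays gave 2634 to 2738 rises and 1547 to 1634 falls. With the replicate block they were 2761 and 1630, and the block gave 0 differences from the wild type and 18 higher and 77 lower genes against the pbf2 deletion. The same-numbered arrays were not shown to be paired. The difference from the wild type had 0 genes in limma under every alternative and without each array (0 to 0). The difference from the pbf2 deletion, 23 higher and 82 lower, had 15 higher genes after quantile normalization, 37 with the arrays compared only and 15 without a trend. It had 0 higher and 1 lower with hybridization control centring, and 0 and 0 with spike-in centring; the cause was not tested. Leaving out single arrays gave 10 to 44 higher and 42 to 174 lower genes. The authors' false discovery rates were not run, since their columns share a name, and the promoter motifs were not run for want of sequences.

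Signs of named genes and list medians turned in the following cases, and the cause was not tested beyond the shift each scaling makes in all genes. The median of the chaperonins turned after quantile normalization (0.093). With median, hybridization control and spike-in centring glycolysis turned (-0.12, -0.20 and -1.15), and so did the deleted marker genes (-0.17, -0.25 and -1.20). FAT3 turned with spike-in centring, which moves every log2 change by -1.23. After quantile normalization the log2 changes were CDC19 -0.080, HYP2 0.27, HXK2 0.18, FAT3 -0.47 and YCT1 -0.21, and the list medians were regulators of ribosome genes -0.0027, hexose transport -0.057, pentose phosphate pathway 0.090 and iron response -0.074. With median centring they were CDC19 -0.20 and regulators -0.043. With hybridization control centring they were CDC19 -0.27, GND1 -0.20, regulators -0.12 and neighbours of TOD6 -0.054. With spike-in centring the genes were TFC3 -0.62, CDC19 -1.22, SEC17 -0.14, STB3 -0.019, CCC2 -0.069, DOT6 -1.14, UBP6 -0.13, PDC6 -0.30, TDH3 -1.10, VMR1 -0.37, ARN1 -0.32, GND1 -1.15, URA8 -0.029, SSA2 -0.87, YCT1 -0.77, SHM2 -0.19, SIC1 -0.54, HSP60 -0.38, RPL15B -0.049, RPD3 -0.76, HSP10 -0.17, TFC7 -0.77 and HRR25 -0.81. The list medians there were regulators -1.07, mitochondrial ribosomal proteins -0.74, Hsp70 -0.47, Hsp40 -0.40, Hsp90 -0.53, ER folding -0.56, proteasome -0.42, ubiquitin -0.52, stress factors -0.35, Ras and protein kinase A -0.12, oxidative defence -0.75, hexose transport -0.71, TCA cycle -0.51, autophagy -0.088, folate -0.54, sulfur -0.67, arginine -0.51, Ehrlich pathway -0.73, cell wall -0.79, iron -0.66, alpha-cell -0.54, sporulation -0.14 and neighbours of TOD6 -1.001.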

Other observations

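Several genes that were at background on all 3 arrays of the pbf1 deletion at 0 min had a geometric mean signal above it at 20 min. They were picked from the 47 genes with such a bound after their values were seen. PEX18, a receptor helper of peroxisomal import, had a geometric mean signal of 91.7 at 20 min and was at least 8.80-fold higher than at 0 min, and POX1, the peroxisomal acyl-CoA oxidase, was at least 4.39-fold higher. The spore genes SPS100 and SMA1 were at least 5.11-fold and 4.70-fold higher, and CDA1, a chitin deacetylase of the spore wall, was at least 3.46-fold higher. FBP1, the fructose bisphosphatase of gluconeogenesis, was at least 2.15-fold higher. The meiotic genes PCH2, MEK1 and MND1 had bounds of 2.46-fold, 1.87-fold and 1.86-fold.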
